A study of Mus musculus with 2 samples.

Results

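Genes of the meningeal fibroblast, the collagen-making cell of the membranes around the brain, were followed in long-read RNA sequencing of mouse hippocampus. They were Ptgds, Dcn, Igf2, Slc6a13, Col1a2 and Ogn, 6 of the 18595 annotated genes with a read, and all their transcript models were taken, 47 in replicate 1 and 62 in replicate 2. The genes were chosen from their levels in these same libraries, in which most of them were higher in replicate 2, so their levels and ratios between libraries are a description and carry no test. Hippocampus was taken at 6 months from C57BL/6 mice, whose strain is given as B6NCrl. The mice are described as male, and the entry for sex is not filled in. The labels name the tissue a layer of the hippocampus and give 1 group with 2 libraries, replicates 1 and 2, each with its own biosample but with 1 shared donor identifier. Whether the libraries came from separate animals is not stated, so every test below compares 2 libraries and the spread between them may be technical. There is no second condition.

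The meninges are sheets of fibroblasts and matrix that cover the brain and follow its larger vessels inward. Their fibroblasts lay down type I collagen, of which Col1a2 encodes the alpha 2 chain, and the small leucine-rich proteoglycans decorin (Dcn) and osteoglycin (Ogn), which bind collagen fibrils. Slc6a13 encodes GAT2, a membrane carrier of GABA and taurine found at the leptomeninges and vessels. Igf2 is a secreted growth factor, imprinted in most tissues. Ptgds encodes lipocalin-type prostaglandin D synthase, which isomerizes prostaglandin H2 to prostaglandin D2 and is secreted into the cerebrospinal fluid as beta-trace, a carrier of small lipophilic molecules. Ptgds is not particular to fibroblasts: oligodendrocytes and the choroid plexus epithelium make it as well. In long-read sequencing a single read can span many introns, so each read shows which introns were removed together.

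The transcript structures found for these genes turned on a few junctions, printed here 5′ to 3′ on the transcript from GENCODE M21 (mm10). The 2 forms of Ptgds with most reads, Ptgds-201 and Ptgds-203, differ in the donor site of exon 6, and capitals mark exon 7.
Ptgds-201, longer exon 6: gctggtcacatgGTGACCTGGCCT
Ptgds-203, shorter exon 6: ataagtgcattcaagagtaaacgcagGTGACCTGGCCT
The first of these lines shows the last 12 bases of the longer exon 6, the second the whole shorter exon of 26 bases, and both go on with 12 bases of exon 7. They lie on the minus strand, at chr2:25466820-25467298 and chr2:25466820-25467345 with the intron between. The shorter exon ends 6 bases after the stop codon and the longer one 39 bases after it, so the 33 bases between the 2 donors are 3′ untranslated and both forms have the same coding part of 570 bases, stop codon included.

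The annotated forms of Ptgds also differ at their start. Ptgds-203 is annotated to start 93 bases downstream of Ptgds-201, within the same exon. Ptgds-202 begins in a separate upstream exon of 37 bases (chr2:25470010-25470046) that is joined to a point inside exon 1 of Ptgds-201, both 5′ untranslated. Capitals mark the bases that Ptgds-201 and Ptgds-202 share from that point on.
Ptgds-202, upstream exon to exon 2: catccccactgtgagTTTTCCTTGCTTTGT
Ptgds-201, same point within exon 1: gctccttctgcccagTTTTCCTTGCTTTGT
The RefSeq window of 300 bases around the start of Ptgds (GRCm38.p6) runs from 25469700 to 25469999 and covers the starts of Ptgds-201 and Ptgds-203 but not that of Ptgds-202. It holds the letters ATAAATA, searched on both strands, 29 bases before the RefSeq start, as do 5.60% of 32851 such windows. The RefSeq start is that of Ptgds-203, at 25469749. The stretch at chr2:25469761-25469790, minus strand, is shown because it lies just upstream of that start, with the match in capitals. It is downstream of the start of Ptgds-201, at 25469842, and so lies within exon 1 of that form.
Ptgds, stretch before the start: caagcctgactcATAAATAgggggtctcca
The letters TATAAA were not in the Ptgds window and were in 13.6% of all windows. A match is a string of letters and shows no binding. A window was listed for 5 of the 6 genes, with Dcn the exception.

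Ptgds was by far the most abundant of the 6 genes. It had 1427 reads in replicate 1 and 3661 in replicate 2, or 1073 CPM (95% interval 1018 to 1130) and 2680 CPM (2594 to 2768), where CPM is counts per 1000000 reads of the library. It ranked 86th and 24th of all genes by reads. The level in replicate 2 was 2.50 times that in replicate 1 (2.35 to 2.66), a log2 ratio of 1.32. The gene was chosen with this ratio known, so the interval shows counting error and is no test. In bulk tissue, more cells that make a transcript and more of it per cell cannot be told apart.

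The proteoglycan gene Dcn came next, with 151 and 209 reads. Its level was 114 CPM (96.1 to 133) in replicate 1 and 153 CPM (133 to 175) in replicate 2, 1.35 times higher in replicate 2 (1.09 to 1.67). The other leucine-rich member, Ogn, had 6 and 8 reads, 4.51 CPM (1.66 to 9.82) and 5.86 CPM (2.53 to 11.5). The Ogn ratio of 1.30 had a wide counting interval, from 0.395 to 4.54, and no direction is read from it.

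The transporter Slc6a13 had 12 and 31 reads, 9.02 CPM (4.66 to 15.8) against 22.7 CPM (15.4 to 32.2). Its ratio of 2.52 was close in value to that of Ptgds, with a far wider interval of 1.26 to 5.38. The collagen gene Col1a2 had 2 and 9 reads, 1.504 CPM (0.182 to 5.43) and 6.59 CPM (3.01 to 12.5), and the interval of its ratio ran from 0.907 to 41.7. Igf2 had 3 reads in replicate 1 and 1 in replicate 2, at or under the 3 reads that a count of 0 allows, and no fold is given. It was the 1 gene of the 6 with fewer reads in replicate 2.

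By level the order was Ptgds, Dcn, Slc6a13, Ogn, Col1a2 and Igf2. Dividing mean CPM by the length of the longest coding transcript kept this order, from 2082 CPM per kilobase for Ptgds and 75.8 for Dcn to 7.10, 2.02, 0.756 and 0.316 for the others. Reads were counted once each whatever their length, and CPM is not divided by length. Counting intervals of Ogn, Col1a2 and Igf2 overlapped in both libraries, and the order among these 3 genes is not resolved. With the 2 libraries as the spread, mean levels were 1876 ± 1136 CPM for Ptgds, 133 ± 27.9 for Dcn and 15.9 ± 9.66 for Slc6a13 (SD, n = 2).

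Of the 6 genes, 5 had the higher CPM in replicate 2, as did 53.9% of the 11891 genes with 10 reads or more in all. Over those genes, Fisher's exact test called 5.95%, with 3.38% higher in replicate 2 and 2.56% higher in replicate 1. Since the 6 genes were picked by this same difference, nothing is read from their count. Igf2 did not reach 10 reads, and the other 5 did.

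**Figure D1:**
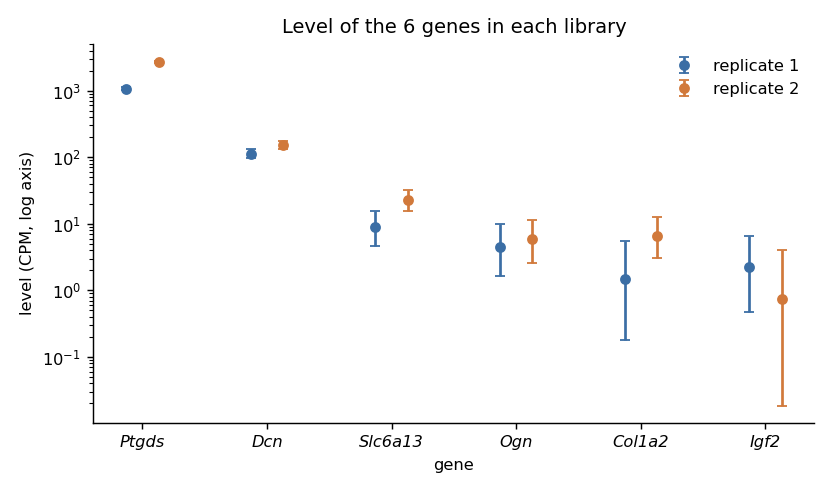
Level in CPM (log axis) of each of the 6 genes in replicate 1 and replicate 2, with exact 95% counting intervals as bars. The genes span from 2680 CPM for Ptgds in replicate 2 to 0.732 CPM for Igf2 in replicate 2. The bars show counting error and are no test, as the genes were chosen with these levels known.

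The leading transcript of Ptgds took a similar share of its reads in both libraries, while the shares of reads with its upstream exon and with intron 1 spliced differed. Ptgds-201, with 7 exons and 901 bases, took 1094 reads in replicate 1 and 2877 in replicate 2. Ptgds-203, with the shorter exon 6, took 246 and 667. Ptgds-204, an annotated form without a coding part that begins inside intron 1, took 26 and 22, Ptgds-202 took 9 and 1, and Ptgds-205, which keeps an intron, took 2 and 3. Ptgds-201 held 76.7% (74.4 to 78.8) and 78.6% (77.2 to 79.9) of reads, a difference of 1.94 percentage points with Fisher's exact adjusted p = 0.716. Dcn-201 held 75.5% (67.8 to 82.1) and 81.8% (75.9 to 86.8) of Dcn reads, with adjusted p = 0.735. Among 6262 genes this test called 3.19%. The other 4 genes had fewer than 20 reads in a library and were not tested.

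The shares of the 2 donors of exon 6 were close in the 2 libraries. The shorter exon was used in 255 of 1418 reads in replicate 1 and in 685 of 3641 in replicate 2, 18.0% (16.0 to 20.1) and 18.8% (17.6 to 20.1). The intron of the longer form had adjusted p = 1 and that of the shorter form adjusted p = 0.994. So while the gene's level differed 2.50-fold, the share of the shorter exon 6 differed by less than its counting error. Reads that started in the upstream exon carried the shorter exon 6 in 3 of 13 cases over both libraries, 23.1% (5.04 to 53.8), an interval that holds the share of all reads, 18.6%.

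The upstream exon of Ptgds did differ. It was in 12 of 1427 reads in replicate 1, 0.841% (0.435 to 1.46), and in 1 of 3660 in replicate 2, 0.0273% (0.000692 to 0.152), and its intron had Fisher's exact adjusted p = 0.000224. The intron that follows exon 1 of Ptgds-201 was spliced in 96.1% (95.01 to 97.1) and 98.4% (97.9 to 98.8) of reads, adjusted p = 0.000382. Reads without it included those of Ptgds-204 and Ptgds-205, which begin inside it, and 19 and 23 incomplete reads that kept the 3′ end. Such reads cannot show whether the intron was removed, so the share does not measure its splicing alone. The test ran over 58679 introns and called 2.87%; of 12 Ptgds introns it called these 2, and of 7 Dcn introns none, with a smallest adjusted p of 0.342 and a smallest unadjusted p of 0.0289. These tests of introns were chosen with the data in view. The summed level of 18 choroid plexus markers was 14272 CPM and 362 CPM in the same 2 libraries, also higher in replicate 1. Ttr alone gave 11964 CPM and 78.3 CPM of these sums. The part of the choroid plexus in the use of the upstream exon was not tested.

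Rarer Ptgds events were found in both libraries at under 1% each. Exon 2, whose 140 bases are not a multiple of 3, was skipped in 4 and 6 reads, intron 2 was retained in 5 and 9, and intron 6 was retained in 4 and 13. Intron 4 had both of its sites placed 4 bases downstream in 6 and 20 reads, its donor alone in 2 and 10 and its acceptor alone in 2 and 9. The junction that these reads alter is coding and is shown for that reason, with the first 4 bases of exon 5 in capitals, at chr2:25467890-25468101, minus strand.
Ptgds, exon 4 to exon 5: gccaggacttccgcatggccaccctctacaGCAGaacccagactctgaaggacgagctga
Reads with the acceptor alone shifted lack the 4 capital letters, and those with the donor alone shifted gain 4 bases between the 2 exons, so both change the reading frame. The introns among these events with at least 10 reads, those of intron 4 and of the skipped exon, had adjusted p of 0.994 or 1.

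**Figure D2:**
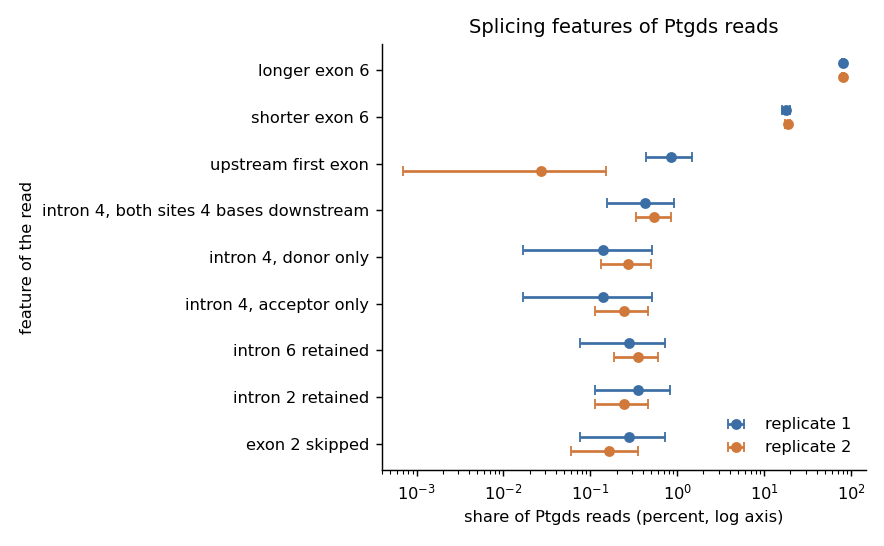
Share of Ptgds reads with each splicing feature named on the vertical axis (percent, log axis) in replicate 1 and replicate 2, with exact 95% counting intervals; 1427 and 3660 reads are the totals. Intervals of the 2 libraries overlap for every feature plotted except the upstream first exon, at 0.841% and 0.0273%; intron 1, whose intervals also lie apart, is not plotted.

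In all, Ptgds reads followed 26 chains of introns in replicate 1 and 32 in replicate 2, and 15 chains were common to both. The shared chains held 98.9% and 99.3% of the reads. Of 32 different Ptgds introns, 20 used a site outside the annotation, and 5 of these were seen in both libraries. Over all 6 genes there were 25 such introns, of which 7 had a donor exactly 4 bases downstream of the annotated one, at 5 annotated introns of 3 genes (Ptgds, Col1a2 and Slc6a13), with 9 and 35 reads. Most of these reads were at Ptgds intron 4, with 6 and 20 for both sites shifted and 2 and 10 for the donor alone. The Slc6a13 intron had 0 and 1 reads. Each Col1a2 intron also had 0 and 1, from the same read. The other 12 introns with a shifted donor had 8 and 9 reads. This grouping at 4 bases was noticed in the data, and its cause was not tested.

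Dcn used annotated introns in every spliced read. Its 2 full-length forms start from separate exons, each 181 bases long and 2758 bases apart, with 26.5% of letters the same position by position. The coding part of 1065 bases begins in exon 2 and is shared. Their junctions with exon 2, in capitals, are shown since the forms differ before this point and not after it. They lie at chr10:97479775-97483353 and chr10:97482533-97483353, plus strand.
Dcn-201, distal exon 1 to exon 2: tacccggattaaaagGTCGTGAAAATACAT
Dcn-202, proximal exon 1 to exon 2: aaacttcttcagaagGTCGTGAAAATACAT
The full-length form with the distal exon took 114 and 171 reads and that with the proximal exon 5 and 3. Of the remaining reads, 19 and 29 were incomplete models that kept the 3′ end, 12 and 6 were single-exon reads in the last exon, and 1 read of replicate 1 kept the 5′ end, with the distal exon. Reads on annotated Dcn transcripts made up 78.8% (71.4 to 85.0) and 83.3% (77.5 to 88.0) of the gene, adjusted p = 1.

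Slc6a13 was read across all its exons despite its low level. Slc6a13-201, with 15 exons and 2234 bases, took 8 of 12 reads in replicate 1 and 22 of 31 in replicate 2. Short annotated forms without a coding part, Slc6a13-202 and Slc6a13-203, took 1 read in replicate 1 and 3 in replicate 2 between them. In replicate 2, 4 reads used an unannotated site, 2 of them a donor 19 bases downstream of the end of exon 13. That junction is shown because it was the one seen in more than 1 read; it is coding, at chr6:121336111-121336844, plus strand, with exon 14 in capitals.
Slc6a13, exon 13 to exon 14: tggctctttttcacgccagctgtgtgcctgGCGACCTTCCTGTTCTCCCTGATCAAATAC
An insertion of 19 bases, which is not a multiple of 3, alters the frame of the exons that follow. No read of replicate 1 had this donor, which at 11 reads of the gene says little.

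Ogn-201, the 1 annotated Ogn transcript, has 7 exons and 2566 bases and was read whole in 2 reads of each library. Another 2 and 4 reads lacked the first exon alone, 1 read of replicate 1 held exons 1 and 2 alone, and 2 reads of replicate 2 held exons 1 to 5. The remaining read of replicate 1 was genomic, that is, not spliced as the gene is. The gene Cenpp overlaps Ogn on the other strand with 24 and 11 reads of its own, and as the strand setting is not known, reads of the pair may not be cleanly separated.

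No Col1a2 read reached its start. The transcript has 52 exons and 5348 bases, and all spliced reads, 2 and 8, ended in exon 52; 1 more read of replicate 2 was genomic. The farthest covered exons 22 to 52 (2965 bases, replicate 1) and exons 23 to 52 (2914 bases, replicate 2), while the shortest spliced read covered 2 exons. Exon 22 (chr6:4521231-4521284, plus strand) is printed as the limit of what was read, and because it shows the triplet repeat that builds the collagen helix, with glycine codons in capitals.
Col1a2, exon 22: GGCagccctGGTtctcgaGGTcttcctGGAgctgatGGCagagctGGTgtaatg
Glycine takes 6 of the 18 codons, each separated from the next by 2 others. The gene has 24 exons of 54 bases, and 45 of its 52 exons have a length that is a multiple of 9.

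Igf2 was seen at its 3′ end only. All 4 reads, 3 in replicate 1 and 1 in replicate 2, were unspliced and had the same 856 bases, chr7:142650769-142651624. They lie in the last exon, minus strand, and the lowest coding coordinate of the gene is 142653816, outside them. Igf2 shares 62.1% of the 25-base words of its annotated transcripts with Gm49394, an overlapping gene on the same strand that had no reads, so a split between the 2 genes cannot be read from these reads. None of the other 5 genes shared more than 1.53% of its words with any gene; that share was of Slc6a13 with Slc6a12.

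By length class of genes, the median share of reads on annotated transcripts was lower for longer transcripts, but not all of the 6 genes lay at their class median. Reads on annotated transcripts were 96.5% (95.4 to 97.4) and 97.5% (97.0 to 98.0) for Ptgds, whose longest coding form has 901 bases, with Fisher's exact adjusted p = 0.646. They were 75.0% and 80.6% for Slc6a13 (2234 bases), 33.3% and 25% for Ogn (2566 bases) and 0 for Igf2 (4722 bases) and Col1a2 (5348 bases). Over 7092 genes tested for this share, 1.28% differed between libraries, and the median share was 67.5% and 69.7%. By length, the median was 94.0% and 94.1% for genes under 1000 bases and 9.31% and 9.68% for those of 5000 bases or more. Ptgds lay above the medians of its length class. Dcn, at 78.8% and 83.3%, lay below those of 1000 to 2000 bases, which were 85.8% and 86.9%. Both genes lay between the 10th and 90th percentiles of their classes. Ogn lay below its class at 74.1% and 76.9%, with intervals of 4.33 to 77.7% and 3.19 to 65.1% from 6 and 8 reads. Igf2 lay below the medians of 51.2% and 56.0% for 3000 to 5000 bases. Its intervals, from 3 reads and 1 read, were 0 to 70.8% and 0 to 97.5%. For annotated models the ends are those of the annotation, so no use of start or end sites is read from them.

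**Figure D3:**
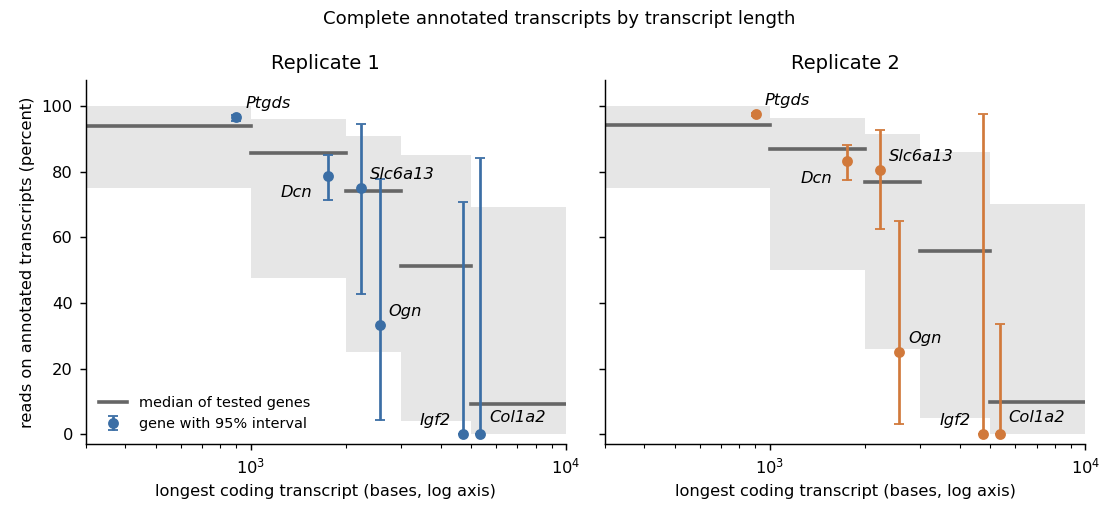
Share of a gene's reads on annotated transcripts (percent) against the length of its longest coding transcript (bases, log axis), 1 panel per library; points are the 6 genes with exact 95% intervals, grey lines the medians and shading the 10th to 90th percentiles of genes that had 20 reads or more in both libraries. The share falls from 96.5% and 97.5% for Ptgds to 0 for Igf2 and Col1a2. Medians fall from 94.0% and 94.1% under 1000 bases to 9.31% and 9.68% at 5000 bases or more, the class of Col1a2. Igf2 lies in the class of 3000 to 5000 bases, with medians of 51.2% and 56.0%.

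Other genes of the meningeal fibroblast gave 1 call in each direction among 20 tested. Of all tested genes, 3.38% were called higher in replicate 2 and 2.56% higher in replicate 1. Of 43 genes listed as markers beside the 6, 42 were found in the annotation by symbol, 37 had a read, and 20 had at least 10 reads and were tested. The median log2 ratio of CPM + 1 of these 20 was -0.03, against 0.05 for all tested genes. The summed level of the 37 genes with a read was 466 CPM in replicate 1 and 427 CPM in replicate 2. Apod alone gave 203 and 159 CPM of these sums, so their difference leans on 1 gene. Higher CPM in replicate 2 was seen for 9 of the 20. By Fisher's exact test with adjustment over all genes, Crabp2, a retinoic acid binding protein, was higher in replicate 2 with 1 and 13 reads (adjusted p = 0.0352), and Pcolce, an enhancer of procollagen cleavage, was higher in replicate 1 with 41 and 15 reads (ratio 2.81, 1.52 to 5.46, adjusted p = 0.0109). The most abundant of the list were Apod (270 and 217 reads), Fstl1 (63 and 63), Fbln1 (39 and 50) and Mgp (30 and 31), none past the test. Crabp2 reached the 10 reads needed for the test through replicate 2 alone, the library where it is high. Neither Crabp2 nor Pcolce passed edgeR's exact test with a dispersion taken from the same 2 libraries (adjusted p = 0.409 and 0.473). With no filter on reads, Crabp2 did not pass Fisher's exact test (adjusted p = 0.0546). Collagen genes of the list, named here for their role with their values known, were scarce. Col1a1 had 3 and 7 reads, Col6a2 0 and 4, Col3a1 and Col12a1 0 and 2 each, Col6a3 3 and 1, and Col5a1 1 and 0. Of other matrix genes, Lum had 9 and 19 reads and Bgn 4 and 2, fewer than Fbln1 and Mgp. No reads were found for 13 and 8 of the 43 genes, Col6a1, Col5a2 and Dpt among them in both libraries. The label of the group thus rests on genes that, Ptgds and Dcn apart, had few reads here.

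Related families of each gene gave few calls, as did all tested genes, of which 5.95% were called. Of 11 further small leucine-rich proteoglycans 4 were tested and none passed, with a median log2 ratio of -0.09 and the highest reads for Prelp (45 and 26), Lum, Ecm2 (16 and 9) and Fmod (6 and 10). Of 20 genes of collagen maturation 12 were tested and Pcolce alone passed; P4hb, a subunit of prolyl hydroxylase, had 239 and 289 reads and the matrix protein Sparc 204 and 228. Of 20 genes of the insulin-like growth factor pathway 14 were tested and Igfbp2, a binding protein of these factors, was higher in replicate 1 with 251 and 94 reads (2.74-fold, 2.16 to 3.51, adjusted p = 2.52e-16). The receptor Igf2r had 13 and 23 reads, and H19, the noncoding gene beside Igf2, had none; both are named for their role. Of 9 genes of GABA and taurine transport 7 were tested and none passed, Abat, the GABA transaminase, with 179 and 141 reads and Slc6a6, the taurine carrier, with 97 and 128.

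In the prostaglandin pathway, 14 of 22 genes were tested, with a median log2 ratio of 0.08. Of these 1 was called, beside 5.95% of all tested genes. Ptgs1, cyclooxygenase 1, which supplies the substrate of Ptgds, had 16 and 41 reads and was higher in replicate 2 (2.49-fold, 1.37 to 4.76, adjusted p = 0.0280). It did not pass without genomic and incomplete reads (adjusted p = 0.137) or by edgeR's exact test (adjusted p = 1). The enzymes of highest level, Ptges3 (478 and 434 reads), Cbr1 (152 and 165), Akr1b3 (110 and 95) and Ptgr2 (81 and 64), did not pass. Named for their role alone, Hpgds, the hematopoietic prostaglandin D synthase, had 8 and 7 reads, and the receptors of prostaglandin D2 follow. Ptgdr and Ptgdr2 had no read in either library, which allows up to 2.26 CPM and 2.20 CPM.

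Among markers of other cells that make Ptgds, most choroid plexus genes and some oligodendrocyte genes differed between the libraries. Of all tested genes, Fisher's exact test called 2.56% higher in replicate 1 and 3.38% higher in replicate 2. Genes with many reads can pass it at small ratios. Of 18 choroid plexus genes, 15 were tested and 13 were higher in replicate 1, from Ttr (15914 and 107 reads), Enpp2 (2136 and 305) and Kcnj13 (298 and 8) to Sostdc1 (54 and 2), with a summed level of 14272 CPM against 362 CPM and no gene of the list higher in replicate 2. Ttr gave 11964 CPM and 78.3 CPM of these sums, and Enpp2 gave 1606 CPM and 223 CPM, so the sums lean on these genes. The direction of the choroid plexus calls was opposite to that of Ptgds. Of 12 oligodendrocyte genes, all tested, 4 were higher in replicate 2, among them Cnp (1008 and 1578 reads, 1.52-fold, adjusted p = 1.57e-23), Mbp (4023 and 5092, 1.23-fold, adjusted p = 8.26e-21) and Ermn (64 and 115, 1.75-fold, adjusted p = 0.00876), all by Fisher's exact test. The summed level of the list was 7206 CPM and 9129 CPM. Of 10 endothelial genes tested, Cldn5 was higher in replicate 2 (218 and 315 reads, adjusted p = 0.00377), and of 8 mural genes none passed. Of 12 astrocyte genes, Aldoc was higher in replicate 2 (2453 and 2968) and Slc1a2 in replicate 1 (813 and 704), the latter with its direction turned without genomic and incomplete reads. None of the oligodendrocyte, endothelial and astrocyte genes passed edgeR's exact test, while 11 of the 13 choroid plexus genes did. Blood genes summed to 12.03 and 8.05 CPM. The part of each of these cells in the level of Ptgds was not tested. Markers of the labelled tissue were present in both libraries: C1ql2 and Prox1 of the dentate gyrus at 226 and 272 CPM and at 21.8 and 19.03 CPM, Wfs1 of CA1 at 77.4 and 105 CPM, and Neurod6 of pyramidal neurons at 184 and 184 CPM. Camk2a and Slc17a7 of excitatory neurons had 530 and 487 CPM and 34.6 and 21.2 CPM.

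**Figure D4:**
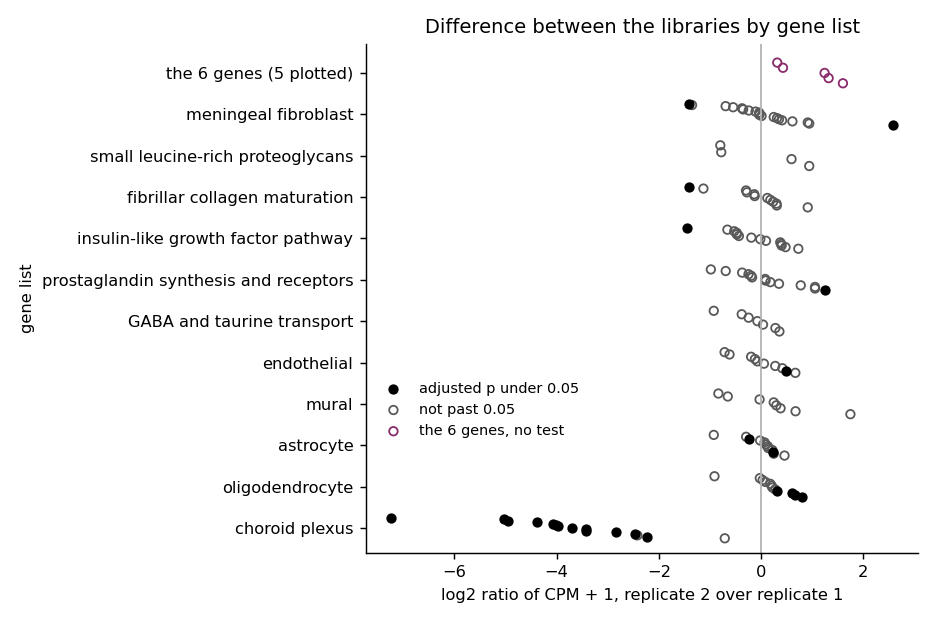
Log2 ratio of CPM + 1, replicate 2 over replicate 1, for genes with 10 reads or more in all, by gene list; filled points had an adjusted p under 0.05 by Fisher's exact test, and the 5 of the 6 genes that are plotted carry no test. The 5 genes lie to the right of 0, the meningeal fibroblast list is centred at -0.03, and 13 choroid plexus genes are filled and far to the left.

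The genes whose ratio between the libraries was nearest to that of Ptgds, among 4475 others with at least 100 reads, were C1qtnf4 (66 and 170 reads), Cbs (48 and 131), Grb14 (46 and 100), Riox1 (39 and 83) and Tysnd1 (51 and 107). Their log2 ratios of CPM + 1 were 1.31, 1.39, 1.06, 1.03 and 1.01, beside 1.32 for Ptgds. The likeness is the difference of 1 ratio over 2 libraries, and none of these genes is on a list above.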

How the data were processed

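Each library's deposited table held raw read counts per transcript model, per the file headers, with no normalization by the authors, beside the model's class, exon number and length. TALON placed reads on models, per the file headers, and the notes deposited beside the tables name mm10 and GENCODE M21. No aligner, platform, filter, strand setting or molecular identifier is given in the sources used here.

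The 6 genes and every gene list were chosen with earlier results of these data known. Reads of all classes were summed per gene and scaled to CPM by the library total. Models were matched between libraries by their chain of introns. Fisher's exact tests were two-sided with Benjamini-Hochberg adjustment at 0.05 over all features: gene reads (at least 10 over both libraries), shares within genes (at least 20 in each library) and introns (at least 10 over both), the last chosen with the data in view. A gene or intron can pass a filter over both libraries through 1 library alone. The tests of gene reads and of shares were checked on simulated counts with counting error only. That check does not cover further spread between libraries. Python 3.11.15, scipy 1.17.1, R 4.3.3, edgeR 4.0.16 and DESeq2 1.42.0 were used, the last 3 for alternative scalings and an exact test whose dispersion came from the same 2 libraries. Intervals are 95% and, like the limit of 3 reads for a count of 0, cover counting error only. Genes of the lists are named where they were among the 4 highest or passed the test (at most 6), with exceptions said in place; a few genes are not reported here. Sequences came from the GENCODE M21 transcripts and the RefSeq promoter table of GRCm38.p6.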

Additional observations from a re-analysis of the deposited data

Results flagged for a closer look

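Antisense loci, models placed on the strand opposite to a gene, held 6 reads over Igf2 in replicate 1 and 0 in replicate 2. The 6 reads are above the 3 that a count of 0 allows and more than the 3 reads of Igf2 itself in that library, and this signal lies outside the gene counts. Over Dcn such loci had 3 and 0 reads, over Slc6a13 and Col1a2 1 and 0 each, and over Ptgds and Ogn none. The strand setting of the libraries is not given in the sources used here, and the origin of these reads was not tested.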

How the results depend on the processing

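The libraries held 1330153 and 1366252 reads, so 1 read is 0.752 and 0.732 CPM, and 4 of the 6 genes rest on under 50 reads in all. Without genomic and incomplete reads, the mean level of Igf2 fell to 0 CPM, that of Col1a2 to 0.458 CPM and that of Ogn to 1.88 CPM, and 162 genes in place of 305 were called higher in replicate 1; no ratio could then be given for Igf2 or Col1a2. The ratios of the other genes stayed inside their counting intervals, and under TMM or DESeq2 library sizes all 6 did. Leaving out a library gave mean levels of 1073 to 2680 CPM for Ptgds, 114 to 153 for Dcn, 9.02 to 22.7 for Slc6a13, 4.51 to 5.86 for Ogn, 1.504 to 6.59 for Col1a2 and 0.732 to 2.26 for Igf2. TMM sizes moved the share of calls higher in replicate 2 from 56.9% to 48.0%, and leaving out genomic and incomplete reads moved it to 68.8%. With edgeR's exact test and a common dispersion from the same 2 libraries, 49 genes were called (13 and 36 higher in replicates 2 and 1) in place of 707, and Crabp2, Pcolce, Ptgs1, Cldn5 and the oligodendrocyte and astrocyte genes were no longer among them, nor were Otx2 and Tmem72 of the choroid plexus list. Slc1a2 turned to a log2 ratio of 0.10 without genomic and incomplete reads. No alternative changed the direction or the call of the leading or annotated share of Ptgds or Dcn. With genomic reads left out, 152 genes differed in annotated share in place of 91. Alternatives for the introns were added after the data were seen: 829 introns were called with genomic reads in the total and 60 with incomplete reads left out, in place of 1685. With at least 20 reads per intron the upstream Ptgds intron was not tested and 1 Ptgds intron was called; under the other 3 alternatives both Ptgds introns were called. The causes were not tested. No paired analysis was possible because there is 1 group.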
